A study of Mus musculus with 6 samples.

Results

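The genes described here encode 10 proteins of the surface of mouse embryonic stem (ES) cells: the receptor Kit, the tetraspanin Cd9, the junction proteins Jam2, Cdh1, Epcam and Pecam1, the integrin chains Itgav and Itga6, and the lipid-anchored proteins Alpl and Cd24a. They were found in the array's table by symbol, and the list of symbols was drawn up with earlier results of these data known. Each symbol stood alone on exactly 1 row (probe set) of the array's value table, so the set is 10 rows of the 23410 rows that carry a gene symbol, and 0 further rows name a member together with another gene. Messenger RNA was measured on 6 Affymetrix arrays of A3-1, an established mouse ES cell line. The cells grew in medium with serum and leukemia inhibitory factor (LIF), the cytokine that holds mouse ES cells undifferentiated. The 3 groups had 2 arrays each. Untreated cells received no small interfering RNA (siRNA), siGFP cells received the control siRNA against green fluorescent protein, and siLin28a cells received the siRNA against Lin28a. The labels give 48 h with siRNA and 1 duplex per siRNA group. They name neither the delivery reagent nor a mock-treated group, and nothing in them ties a group's arrays to cultures grown apart. The p-values here thus reflect array-to-array spread alone, and that spread could be technical.

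These proteins carry signals and hold cells together. Kit is a receptor tyrosine kinase whose ligand is stem cell factor, and integrins are pairs of an alpha and a beta chain that bind the extracellular matrix. Cdh1 (E-cadherin), Epcam, Pecam1 and Jam2 contact neighbouring cells, Cd9 organises other membrane proteins into domains, and Alpl (tissue-nonspecific alkaline phosphatase) and Cd24a are tethered by a glycolipid (GPI) anchor. Alkaline phosphatase activity, Cdh1, Cd9, Epcam, Kit and Pecam1 are long-used marks of undifferentiated mouse ES cells. Like other surface proteins they are made on ribosomes at the endoplasmic reticulum. LIN28A, an RNA-binding protein of ES cells, blocks the maturation of let-7 microRNAs and also binds many messenger RNAs, so setting siLin28a beside siGFP addresses how the transcripts of surface proteins stand when it is reduced. The arrays measured RNA only, not protein at the surface.

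The siRNA that defines the siLin28a group is shown because every comparison with that group rests on this 1 duplex. Its strands are given 5′ to 3′ as the labels list them, without their deoxythymidine overhangs, and capitals mark bases 2 to 8, the seed with which a loaded strand first pairs. All 19 bases of a strand pair with the other. The labels do not say which strand is meant to be loaded.
First strand: gCAGAAGCgaagauccaaa
Second strand: uUUGGAUCuucgcuucugc

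Promoter sequences were available for 5 members, Kit, Cd9, Alpl, Itgav and Epcam, from RefSeq (GRCm38.p6). Those of Kit and Cd9 are shown because these were the members with a listed promoter whose siLin28a arrays all lay below every other array. Each is the 250 bases before the annotated start of the gene, 5′ to 3′ on the gene's strand, at chr5:75574737-75574986 (plus strand) for Kit and chr6:125494761-125495010 (minus strand) for Cd9. Capitals mark the GC box, GGGCGG, searched on both strands.
Kit: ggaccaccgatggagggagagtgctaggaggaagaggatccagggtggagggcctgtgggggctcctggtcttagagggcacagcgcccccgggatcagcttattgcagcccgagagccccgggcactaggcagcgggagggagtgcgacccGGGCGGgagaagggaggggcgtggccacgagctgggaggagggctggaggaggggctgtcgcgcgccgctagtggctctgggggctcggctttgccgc
Cd9: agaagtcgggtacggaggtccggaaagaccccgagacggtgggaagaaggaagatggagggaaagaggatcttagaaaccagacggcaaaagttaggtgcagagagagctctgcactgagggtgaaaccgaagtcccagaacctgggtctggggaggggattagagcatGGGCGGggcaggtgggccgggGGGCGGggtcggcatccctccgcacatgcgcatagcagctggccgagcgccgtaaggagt

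The Kit window holds 1 GC box, which begins 98 bases before the start, and the Cd9 window holds 2, which begin 81 and 60 bases before it. GC boxes were found in 32.7% of the 32851 listed windows of this length. Both windows are rich in G and C, at 70.8% for Kit and 61.6% for Cd9 against a median of 52.4% over all windows, and they hold 17 and 16 CpG dinucleotides against a median of 6. The CACCC box (CACCC, both strands) was present in each, as in 52.0% of all windows. The octamer ATGCAAAT (both strands), which POU factors bind, was present in neither, and 1.60% of all windows hold it. The window at the start of Alpl holds 2 GC boxes, that of Epcam 1 and that of an Itgav transcript 0. These matches describe letters and are not evidence of binding.

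Values are log2 expression as deposited, in steps of 0.1, so 1 unit is a 2-fold difference, and differences are those of group means with the moderated standard error (SE) of limma. The median of an array over all rows was between 5.2 and 5.3, and its upper quartile was 7.2 on every untreated and siGFP array and 7.0 and 7.1 on the siLin28a arrays. The 3 pairs of arrays within a group correlated at r between 0.992 and 0.994 across rows, and the 12 pairs between groups at 0.991 to 0.995. Lin28a itself was at 9.1 and 9.4 in untreated cells, 9.1 and 9.4 with siGFP, and 7.4 and 7.4 with siLin28a. It was 3.60-fold lower with siLin28a than in either other group (difference −1.85, SE 0.16), with an adjusted p by limma of 0.512 against siGFP and 0.171 against untreated cells. All 12 ES cell markers had a mean of at least 6, from 7.02 for Dppa3 to 12.5 for Dppa5a. Defining genes of other cells were mostly low, as Cdh5 of endothelium averaged 4.55, Ptprc of blood 3.57, Lum of fibroblasts 2.42, Sox17 of primitive endoderm 4.17 and Cdx2 of trophoblast 4.40. Other genes of those lists were brighter, with Sparc at 9.37 and Lama1 at 7.45 (primitive endoderm), Tfap2c at 8.07 (trophoblast), Fbln1 at 8.02 and Thy1 at 6.82 (fibroblast), and Egfl7 at 7.03 (endothelial). In all, 5 of 12 fibroblast, 2 of 10 endothelial, 1 of 8 blood, 2 of 10 primitive endoderm and 3 of 10 trophoblast markers had a mean of at least 6. The mean of the 10 endothelial markers was 5.06 and 5.09 on the untreated arrays, 5.10 and 5.18 with siGFP and 5.19 and 5.24 with siLin28a, and that of the 8 measured blood markers lay between 4.51 and 4.70, and their part in the values of Pecam1 and Kit was not tested. Within the endothelial list Tek was at 6.1 and 6.0, then 6.8 and 6.6, then 7.2 and 7.1 in the untreated, siGFP and siLin28a arrays.

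In siLin28a cells 3 members stood below siGFP cells without overlap: Kit and Jam2, each 1.57-fold lower, and Cd9, 1.32-fold lower. The remaining 7 members had arrays that overlapped or tied between the groups, among them the adhesion proteins Cdh1 and Epcam, with differences of 0.05 each. By limma 0 of 10 members passed an adjusted p of 0.05, as did 0% of all 23410 rows, and 3 of 10 had an unadjusted p under 0.05, against 4.05% of rows. Rows whose siLin28a arrays both lay below the siGFP arrays made up 11.8% of all rows, against 3 of 10 members. Rows in the reverse position made up 9.03%, against 0 of 10. The median difference over the members was −0.175, against 0.00 over all rows, and it was −0.083 with arrays quantile normalized again and −0.095 with cyclic loess.

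Kit was at 9.2 and 9.2 with siGFP and at 8.4 and 8.7 with siLin28a, beside 9.2 and 9.5 in untreated cells. The siLin28a arrays were the lowest for this receptor, and the untreated and siGFP arrays overlapped. The difference from siGFP was −0.65 (SE 0.16, n = 2 per group, 95% interval −1.04 to −0.26, adjusted p 0.953 by limma).

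Jam2 (junctional adhesion molecule B), an immunoglobulin protein of cell contacts, was at 9.5 and 9.4 with siGFP and at 8.7 and 8.9 with siLin28a. Untreated cells had 9.6 and 9.6, so the groups kept an order with no overlap, and the step to siLin28a was the larger. That step was −0.65 (SE 0.13, interval −0.96 to −0.34, adjusted p 0.953 by limma), and with an unadjusted p of 0.0019 it held rank 31 among the 23410 rows, the foremost of the members.

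Cd9, the tetraspanin, was at 9.9 and 10.1 with siGFP and at 9.6 and 9.6 with siLin28a, beside 10 and 10.1 in untreated cells. The siLin28a arrays agreed to the 0.1 step and lay below all others. The difference from siGFP was −0.40 (SE 0.13, interval −0.71 to −0.09, adjusted p 0.953 by limma).

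**Figure D1:**
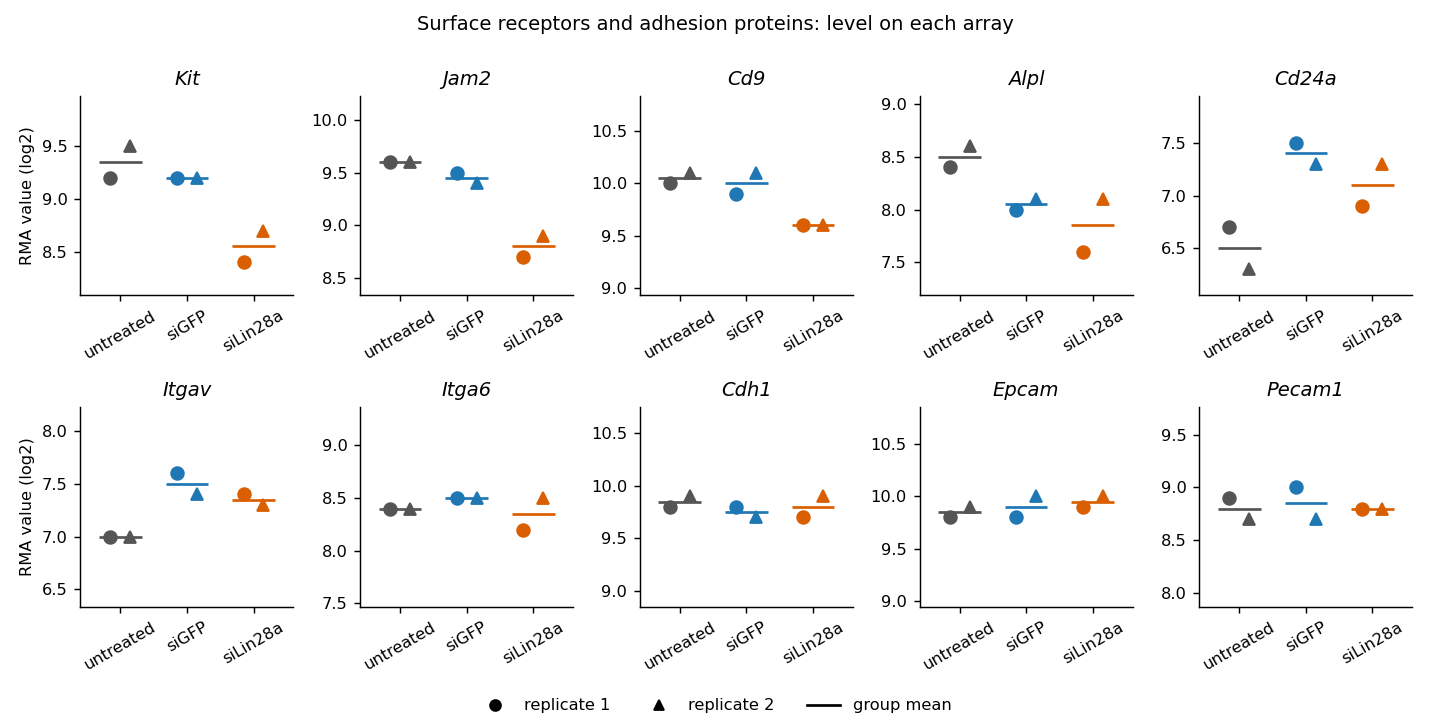
Log2 RMA value (vertical axis, the same span of 1.9 in every panel) of each surface gene on each array, by group (horizontal axis); circles are replicate 1, triangles replicate 2 and bars the group mean. Kit, Jam2 and Cd9 sit lowest on the siLin28a arrays, Cd24a and Itgav sit lowest on the untreated arrays, and Cdh1, Epcam and Pecam1 overlap in every comparison.

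The siLin28a arrays held more rows below than above siGFP wherever the mean of a row was at least 6, which takes in all 10 members. The 3339 rows whose mean was at least 8 and under 10 differed from siGFP by a median of −0.10, and 16.1% of them lay below without overlap and 2.28% above. Of the members 8 lie in that range. Kit, Jam2 and Cd9 were lower by more than its median, as were Alpl and Itga6 through siLin28a replicate 1, and Cdh1, Epcam and Pecam1 were not. In the 5926 rows from 6 to 8, where Cd24a and Itgav lie, the median was −0.05, with 16.7% below and 5.47% above. After a further quantile normalization or cyclic loess, which even out the arrays' distributions, the difference was −0.57 and −0.55 for Kit, −0.56 and −0.56 for Jam2, and −0.30 and −0.31 for Cd9. With the arrays moved to the same median it was −0.68 for Kit and for Jam2 and −0.42 for Cd9, and the share of higher rows among those without overlap was 32.1% in place of 43.4%. That share was 51.6% with arrays quantile normalized again and 48.8% with cyclic loess, so the balance of higher and lower rows varied with the scaling. Under the median shift, higher rows stayed at 2113 while lower rows went from 2758 to 4476. Values come in steps of 0.1, so a shift smaller than a step can part tied arrays, and how much of the change this makes was not tested.

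ES cell markers lay on the same side as these 3 members. Of the 12, 7 were below siGFP without overlap and 0 above, with a median difference of −0.30. All rows had 11.8% below and 9.03% above, and rows with a mean of at least 10, where 6 of these markers lie, had 11.3% below and 0.626% above. Rows from 8 to 10, where Zfp42, Esrrb, Klf4, Fgf4 and Tfcp2l1 lie, had 16.1% below and 2.28% above. Those from 6 to 8, where Dppa3 lies, had 16.7% and 5.47%. The mean of the list was between 10.25 and 10.43 on the untreated and siGFP arrays and 9.92 and 10 on the siLin28a arrays, and its part in the members' values was not tested. In such bulk RNA, fewer cells that carry a transcript and less of it per cell cannot be told apart. The means of the 12 fibroblast, 10 primitive endoderm and 10 trophoblast markers lay between 5.17 and 5.73 on all arrays.

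Cdh1, the calcium-dependent adhesion protein that joins ES cells into colonies, was at 9.8 and 9.9 in untreated cells, 9.8 and 9.7 with siGFP and 9.7 and 9.9 with siLin28a. Epcam, an adhesion protein of epithelia and ES cells, was at 9.8 and 9.9, at 9.8 and 10, and at 9.9 and 10 in the same order of groups. Their differences between siLin28a and siGFP had the same interval, −0.26 to 0.36. This bounds a change at 1.29-fold higher and a ratio of 0.833 in the lower direction, and it does not show that the levels are equal.

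Pecam1 (CD31), an immunoglobulin protein of cell contacts, was at 8.9 and 8.7 in untreated cells, 9.0 and 8.7 with siGFP and 8.8 and 8.8 with siLin28a. The untreated and siGFP arrays each differed between replicates by more than any of the group means did. Its difference from siGFP was −0.05 (interval −0.41 to 0.31).

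Itga6, the laminin-binding alpha chain, was at 8.5 and 8.5 with siGFP and at 8.2 and 8.5 with siLin28a. Only siLin28a replicate 1 was low, and the difference was −0.15 (interval −0.49 to 0.19), or 0.00 without that array. Itgav, the alpha chain of vitronectin and fibronectin receptors, was at 7.6 and 7.4 with siGFP and 7.4 and 7.3 with siLin28a, with a tie at 7.4 and a difference of −0.15 (interval −0.46 to 0.16) that ranged from −0.25 to −0.05 without 1 siGFP array.

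Alpl was at 8.0 and 8.1 with siGFP and at 7.6 and 8.1 with siLin28a, a difference of −0.20 (interval −0.66 to 0.26) that came from siLin28a replicate 1, since without that array it was 0.05. Cd24a, a small and heavily glycosylated GPI-anchored protein, was at 7.5 and 7.3 with siGFP and at 6.9 and 7.3 with siLin28a. Its difference was −0.30 (interval −0.79 to 0.19), which was −0.10 without siLin28a replicate 1 and −0.50 without siLin28a replicate 2. In both genes siLin28a replicate 2 tied with a siGFP array.

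Setting siGFP beside untreated cells shows the members' levels with and without the control siRNA. Cd24a was 1.87-fold higher and Itgav 1.41-fold higher with siGFP, and Alpl was 1.37-fold lower, each without overlap. Kit and Cd9 overlapped between these groups. By limma 0 of 10 members passed, as did 0% of rows, and 2 of 10 (Cd24a and Itgav) had an unadjusted p under 0.05, against 3.52% of rows. Of the members 3 lay above without overlap (Cd24a, Itgav and Itga6), against 9.22% of rows, and 2 below (Alpl and Jam2), against 8.46% of rows. The median over the members was 0.00, as over all rows. With the arrays moved to the same median, the share of higher rows among those without overlap was 40.0% in place of 52.2%. It was 50.4% with arrays quantile normalized again and 49.0% with cyclic loess. Under the median shift, which can part tied arrays, higher rows went from 2159 to 2235 and lower rows from 1980 to 3354.

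Cd24a was at 6.7 and 6.3 in untreated cells, the lowest arrays of that gene, against 7.5 and 7.3 with siGFP. The difference was 0.90 (SE 0.20, n = 2 per group, interval 0.41 to 1.39, adjusted p 0.961 by limma). Its unadjusted p of 0.0040 held rank 42 of 23410 rows. Values without 1 array ranged from 0.70 to 1.10.

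Itgav was at 7.0 on each untreated array and at 7.6 and 7.4 with siGFP. The difference was 0.50 (SE 0.13, interval 0.19 to 0.81, adjusted p 0.961 by limma), and it was between 0.48 and 0.49 under the other scalings.

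Alpl was at 8.4 and 8.6 in untreated cells against 8.0 and 8.1 with siGFP. That made the alkaline phosphatase gene the member whose level was lower beside siGFP itself, by −0.45 (SE 0.19, interval −0.91 to 0.01, adjusted p 0.961 by limma). Jam2 and Itga6 also lay apart, but by a single step of 0.1 between their nearest arrays, with differences of −0.15 and 0.10. Kit had −0.15 (interval −0.54 to 0.24), Cd9 −0.05 (−0.36 to 0.26), Cdh1 −0.10 (−0.41 to 0.21), Epcam 0.05 (−0.26 to 0.36) and Pecam1 0.05 (−0.31 to 0.41).

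**Figure D2:**
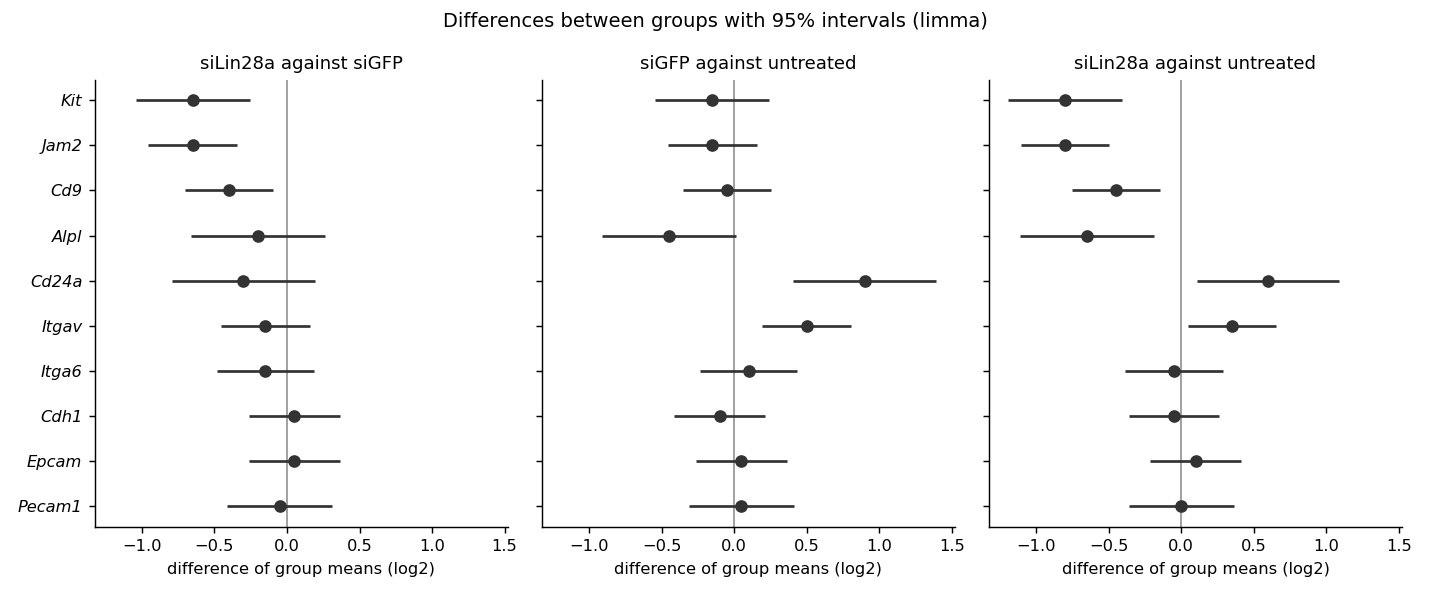
Difference of group means (horizontal axis, log2) of each surface gene (vertical axis) in the 3 comparisons, as points with limma's 95% intervals that are not adjusted for the number of rows. Kit, Jam2 and Cd9 lie below 0 where siLin28a is compared, and Cd24a and Itgav lie above 0 where an siRNA group is compared with untreated cells.

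The comparison of siLin28a with untreated cells holds delivery and target together, and it shares its arrays with the comparisons above. Jam2 and Kit were each 1.74-fold lower, Alpl 1.57-fold lower and Cd9 1.37-fold lower, and Cd24a was 1.52-fold and Itgav 1.27-fold higher, all without overlap. By limma 0 of 10 members passed, as did 0% of rows, and these 6 had an unadjusted p under 0.05, against 6.44% of rows. The members without overlap were 4 lower, against 12.6% of rows, and 2 higher, against 11.1% of rows, with a median over the members of −0.05 against 0.00 over all rows. Among rows with a mean from 8 to 10, where the 4 lower members lie, 19.5% lay below and 5.48% above. From 6 to 8, where Cd24a and Itgav lie, 17.1% lay below and 11.1% above. With the arrays moved to the same median, the share of higher rows among those without overlap was 28.8% in place of 46.9%, while it was 52.6% with arrays quantile normalized again and 52.3% with cyclic loess.

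Jam2 had the smallest adjusted p of any member in any comparison, with a difference from untreated cells of −0.80 (SE 0.13, n = 2 per group, interval −1.11 to −0.49, adjusted p 0.505 by limma). Kit had −0.80 (SE 0.16, adjusted p 0.558 by limma) and Cd9 −0.45 (SE 0.13, adjusted p 0.643 by limma). Alpl had −0.65 (SE 0.19, adjusted p 0.658 by limma), which was −0.40 without siLin28a replicate 1 and −0.90 without siLin28a replicate 2. For Alpl the difference of siGFP from untreated stood beside it at −0.45 and that of siLin28a from siGFP at −0.20. For Kit these values were −0.15 and −0.65.

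Cd24a had 0.60 (SE 0.20, adjusted p 0.695 by limma) and Itgav 0.35 (SE 0.13, adjusted p 0.705 by limma) against untreated cells. Both had their highest group mean with siGFP, at 7.40 and 7.50, and a siLin28a mean between that and the untreated mean, at 7.10 and 7.35. The siLin28a and siGFP arrays did not separate for either gene. Epcam had 0.10 (interval −0.21 to 0.41), Itga6 −0.05 (−0.39 to 0.29), Cdh1 −0.05 (−0.36 to 0.26) and Pecam1 0.00 (−0.36 to 0.36).

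Across the 6 arrays the members can be ordered by their group levels. Kit and Cd9 had siLin28a lowest with untreated and siGFP not separated, and Jam2 had siLin28a lowest with siGFP 0.15 below untreated. Alpl had untreated highest, with an array of each siRNA group at 8.1. Cd24a and Itgav had untreated lowest and their highest mean with siGFP, and an array of each siRNA group shared a value. Itga6, Cdh1, Epcam and Pecam1 spanned 0.2 to 0.3 over all arrays.

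The rows most like 4 members that spanned at least 0.8 were found by the mean absolute difference over the 6 arrays after each row was centred on its own mean. The 5363 candidate rows spanned at least 0.6. For Kit the nearest were Nid1 (0.028), a basement membrane protein, Ptbp3 (0.033), an RNA-binding splicing regulator, and Strbp (0.056), an RNA-binding protein. For Jam2 they were Zfp36l1 (0.044), a protein that binds AU-rich messenger RNA, Rnf213 (0.056), a ubiquitin ligase, and Cobl (0.067), an actin nucleator. For Alpl they were Cnep1r1, Ldlrad4 and Prkar2a (0.061 each), and for Cd24a they were Trim38 (0.067), Abcb1b (0.12), a drug efflux pump, and Raph1 (0.12). Nid1 was at 8.3 and 8.6 in untreated cells, 8.3 and 8.4 with siGFP and 7.5 and 7.8 with siLin28a, and Abcb1b was at 6.4 and 5.9, at 7.1 and 7.0, and at 7.0 and 7.0. Trim38 was at 3.3 and 2.9 in untreated cells, 4.0 and 3.7 with siGFP and 3.3 and 3.8 with siLin28a. All of these values lie below the array medians of 5.2 to 5.3 over all rows. The nearest rows were picked from many for their likeness, so their closeness carries no test.

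**Figure D3:**
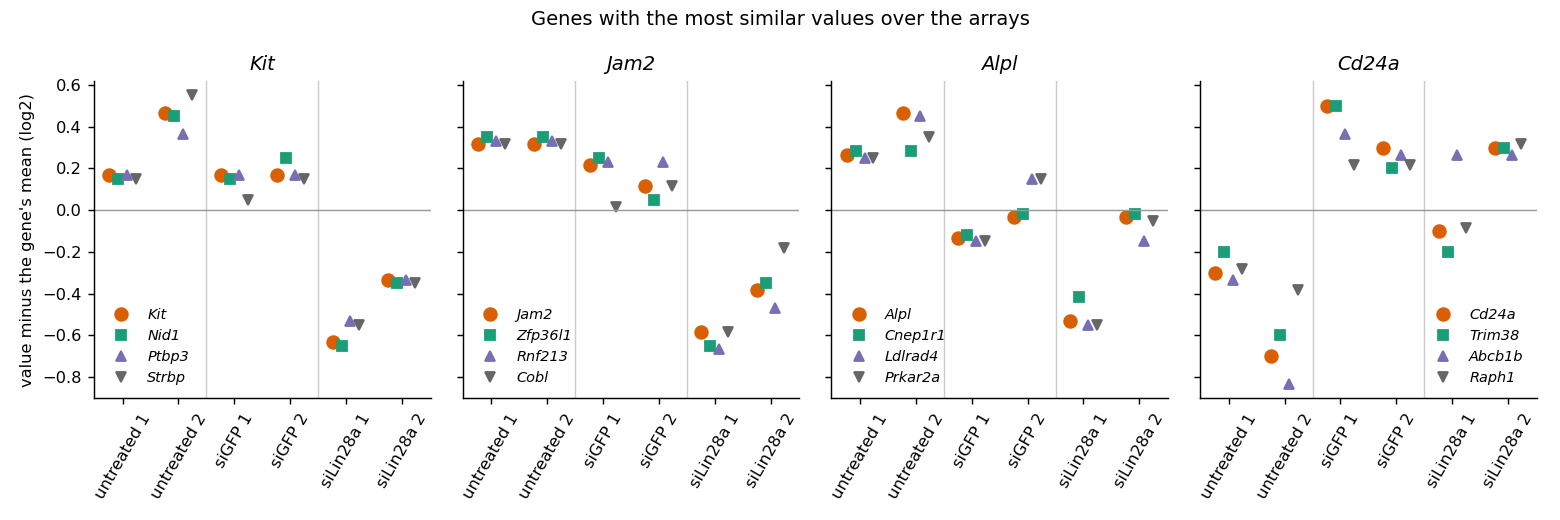
Value minus the gene's own mean (vertical axis, log2) on each array (horizontal axis) for Kit, Jam2, Alpl and Cd24a, as orange circles, and for the 3 genes nearest to each, as other symbols; grey vertical lines part the groups. Kit and Nid1 differ by 0.028 on average, and Cd24a differs by 0.067 from Trim38 and by 0.12 from Abcb1b.

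Partners and relatives of the members were taken from 11 lists with 294 measured genes besides the members. By limma 0 of them passed in any comparison, and 15 had an unadjusted p under 0.05 in the comparison of siLin28a with siGFP, which is 5.10% against 4.05% of all rows. In the comparison of siLin28a with siGFP their medians lay between −0.10 and 0.00. Counts without overlap in the lists are to be read against the shares over all rows, 11.8% below and 9.03% above. These shares differ with level. They were 8.46% below and 13.2% above for rows with a mean under 6, 16.7% and 5.47% from 6 to 8, and 16.1% and 2.28% from 8 to 10. The list of stem cell factor and Kit signalling had 19 of 30 genes other than Kit lower, 4 higher and 7 equal, with 4 below without overlap and 0 above (median −0.075). Kitl, the ligand itself, was low, at 3.7 and 3.6, 3.8 and 3.5, and 3.5 and 3.6 in the untreated, siGFP and siLin28a arrays. Yes1, a Src-family kinase, was at 9.2 and 8.4, 8.6 and 8.4, and 7.7 and 7.8. It had the largest difference from siGFP in its list, −0.75 (SE 0.26), and Pik3r1, a regulatory subunit of PI 3-kinase, had −0.35.

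Among cadherins and catenins 12 of 26 other genes were lower, 12 higher and 2 equal (median 0.00). Without overlap, 2 lay below and 0 above. The catenins that tie Cdh1 to actin overlapped between siGFP and siLin28a, with Ctnnb1 at 10.7 and 11 against 10.6 and 10.9, and Ctnna1 at 10.2 and 10.4 against 9.9 and 10.2. The neural cadherin Cdh2 was at 5.1 and 5.5 against 5.2 and 5.6. Jup (plakoglobin) was at 8.7 and 8.7 in untreated cells, 9.3 and 9.1 with siGFP and 8.8 and 8.8 with siLin28a, so its siGFP arrays stood above both other groups. Esrp2, an epithelial splicing factor, was at 6.4 and 6.4, at 6.6 and 6.7, and at 6.5 and 6.3.

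Of 35 integrins and matrix genes besides Itgav and Itga6, 14 were lower, 16 higher and 5 equal (median 0.00). Without overlap, 5 lay below and 3 above. Of the beta chains, Itgb1 was at 8.2 and 8.2 with siGFP and 7.9 and 8.3 with siLin28a, and Itgb5 at 7.9 and 8.1 against 8.2 and 8.2. The differences of the remaining listed beta chains from siGFP were −0.15 for Itgb3, 0.00 for Itgb4, 0.00 for Itgb6, −0.15 for Itgb7 and 0.30 for Itgb8. Nid1 had the largest difference from siGFP, −0.70 (SE 0.16), and Itga9, an alpha chain, had −0.55 (SE 0.13), from 7.1 and 7.3 to 6.6 and 6.7. In the adhesion machinery behind integrins 10 of 20 genes were lower, 7 higher and 3 equal (median −0.025), with Parvb at −0.30 and Zyx at 0.20. There 2 lay below without overlap and 1 above.

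Of 27 tetraspanins and partners besides Cd9, 13 were lower, 9 higher and 5 equal (median 0.00). Without overlap, 4 lay below and 4 above. Cd81, the close relative of Cd9, was at 9.9 and 10 in untreated cells, 10.2 and 10.4 with siGFP and 10.3 and 10.3 with siLin28a, and so differed in position from Cd9. Ptgfrn, an immunoglobulin partner of both, was at 7.5 and 7.7, 7.4 and 7.7, and 7.2 and 7.4. Adam10, a sheddase, had −0.45 (SE 0.20) against siGFP, with a range of −0.70 to −0.20 when 1 array was left out, and Tspan5 had 0.25, with arrays at 7.5 and 7.7, 7.9 and 7.9, and 8.1 and 8.2.

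Of 13 claudins, proteases and relatives of Epcam, 10 were lower, 2 higher and 1 equal (median −0.05), with 3 below without overlap and 0 above. Its partner Cldn7 was at 7.0 and 6.8 with siGFP against 7.2 and 6.5 with siLin28a, and Cldn6 at 8.7 and 8.2 against 8.8 and 8.2. Cldn4 was at 8.2 and 8.3 in untreated cells, 8.7 and 8.8 with siGFP and 8.3 and 8.3 with siLin28a, which placed siGFP above both other groups, as for Jup. Cldn12 had a difference of 0.25 from siGFP, which ranged from 0.00 to 0.50 without 1 array.

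Of 23 tight junction genes besides Jam2, 13 were lower, 9 higher and 1 equal (median −0.05), with 2 below without overlap and 1 above. The other junctional adhesion molecules overlapped between siGFP and siLin28a: Jam3, which binds JAM2, was at 6.1 and 6.4 against 5.8 and 6.2, and F11r (JAM-A) at 8.7 and 8.9 against 8.5 and 8.8. The scaffold Tjp1 was at 8.4 and 8.5 against 8.0 and 8.4. Cgn (cingulin) had −0.30 and the polarity kinase Prkcz −0.25. Among 19 other immunoglobulin adhesion genes 12 were lower, 6 higher and 1 equal (median −0.10), with Mcam at −0.30 (−0.45 to −0.15 without 1 array) and Igsf3 at −0.25 (−0.40 to −0.10). Here 4 lay below without overlap and 2 above.

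Of 28 GPI-anchored proteins and phosphatases besides Alpl and Cd24a, 11 were lower, 13 higher and 4 equal (median 0.00). Without overlap, 1 lay below and 1 above. Ly6g6e had −0.40 (−0.60 to −0.20 without 1 array) and Tdgf1 (Cripto), a Nodal co-receptor, −0.30, from 12 and 12.2 to 11.8 and 11.8. The enzymes that build the anchor had 17 of 28 lower, 7 higher and 4 equal (median −0.05), with 7 below without overlap and 1 above, and these lower genes include Mppe1 at −0.35 and Pigk at −0.20. Of 47 other receptors of ES cells, 25 were lower, 19 higher and 3 equal (median −0.05), with Fzd2, a Wnt receptor, at 0.55 (SE 0.14) and the ephrin receptor Epha4 at −0.45 (SE 0.26). In this list 8 lay below siGFP without overlap and 6 above. The value of Epha4 rests on siGFP replicate 1 (8.4, against 7.6 on the other siGFP array), and it was −0.05 without that array. Against untreated cells, 11 of these 47 receptors lay above without overlap with siGFP and 17 with siLin28a, with medians of 0.10 and 0.10 (2 and 8 lay below). Over all rows 9.22% and 11.1% lay above, and 8.46% and 12.6% below.

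**Figure D4:**
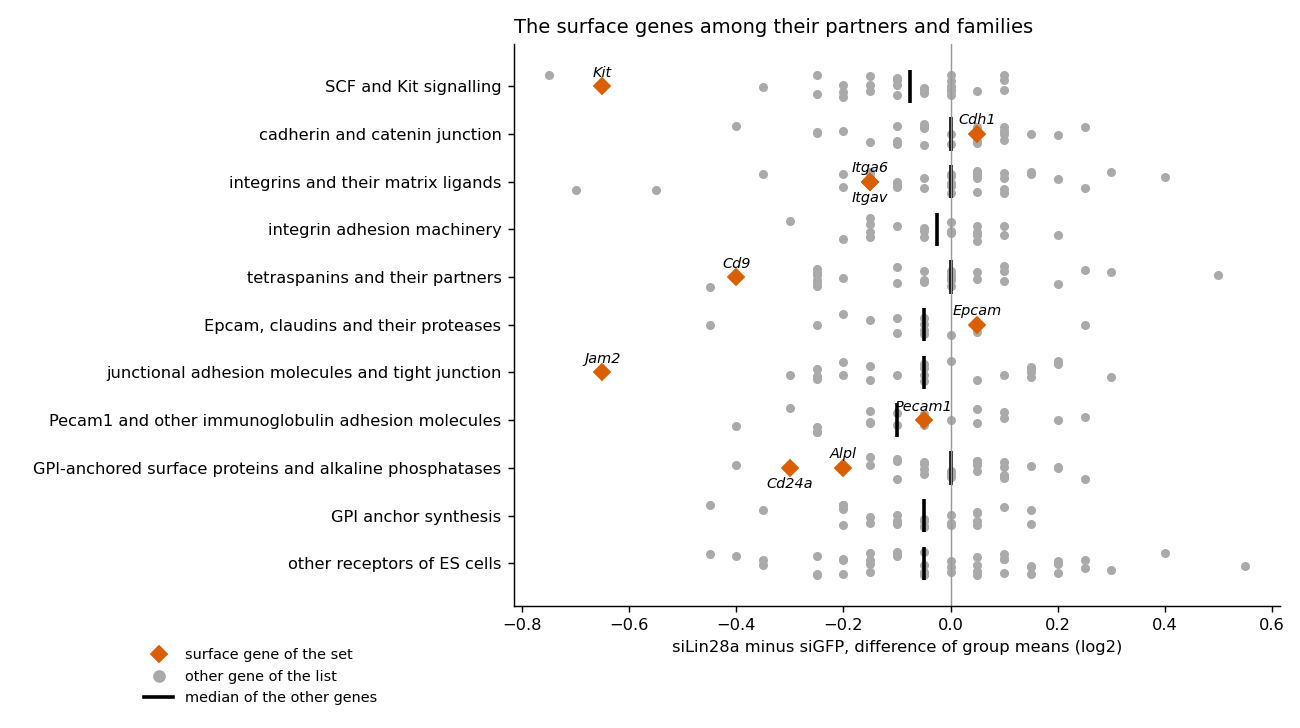
Difference of siLin28a from siGFP (horizontal axis, log2) for the genes of 11 lists (vertical axis); orange diamonds are the surface genes of the set, grey points the other genes of each list, spread vertically for legibility, and black bars the medians of the grey points. The medians lie between −0.10 and 0.00. At −0.65 each, Kit is near the low end of its list and Jam2 is the lowest of its list.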

How the data were processed

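The deposited values are log2 expression per probe set, made by the authors with Affymetrix Expression Console and RMA, per the submitters' processing notes. For tool versions, library files and the genome build: not given in the sources used here. RMA corrects background, quantile normalizes arrays and summarises probes. The log2 scale was read from the values. Probe genes came from the platform's annotation: 21789 rows have 1 symbol, 1621 several and 12146 none. The 23410 named rows were fitted on all 6 arrays with limma (version 3.58.1, R version 4.3.3), using lmFit, contrasts.fit and eBayes, so that the groups shared 1 spread with 3 residual and 3.19 prior degrees of freedom. P-values were two-sided and Benjamini-Hochberg adjusted over all named rows in each of 3 comparisons, with a threshold of 0.05. The fit was tested on simulated data. No exact permutation was run, because the smallest p that 2 arrays against 2 allow is 0.333. Members and lists were chosen with earlier results of these data known, so no list was tested. A listed gene was represented by its brightest row. Named from the lists are direct partners of the members and the 2 genes of each list with the largest difference of siLin28a from siGFP, where the brighter group's mean reached 6. Arrays of unequal groups were called not overlapping when every array of one lay strictly beyond those of the other. Alternatives changed the prior, scaling, row filter, samples and replicate block. Promoters were matched by symbol. Their coordinates are RefSeq's and were not joined to the array.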

Additional observations from a re-analysis of the deposited data

How the results depend on the processing

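Of 510 member values under the alternatives 494 did not reverse in sign and stayed on the same side of the threshold. These include values that reached 0. They also include Pecam1 in siLin28a against untreated, at 0.00 in the main fit and from −0.10 to 0.108 in the alternatives. Another 16 changed sign, and 0 became significant. Many of the 494 kept their direction by construction. The replicate block, the changed priors and row filters, and averaging rows leave a member's difference as it was. So does leaving out arrays of the group outside the comparison. In those alternatives only the p-value could change. Direction could change only under another scaling or without an array of a compared group. The count of rows past the threshold was 1 in the comparison of siLin28a with siGFP with a robust prior or with array medians made equal, and Lin28a was that row. Against untreated cells it was 7 with a robust prior, 3 with the arrays shifted and 3 after cyclic loess. The median over the members ranged without 1 array from −0.35 to −0.075 for siLin28a against siGFP and from −0.175 to 0.025 for siLin28a against untreated, where it was 0.0583 after a further quantile normalization.

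Without 1 array, the range for siLin28a against siGFP was −0.45 to 0.05 for Alpl, −0.05 to 0.15 for Epcam, −0.05 to 0.15 for Cdh1, −0.20 to 0.10 for Pecam1, −0.25 to 0.05 for Kitl, −0.10 to 0.30 for Cdh2, −0.40 to 0.30 for Cldn7, −0.25 to 0.05 for Ctnnb1, −0.25 to 0.35 for Cldn6 and −0.30 to 0.10 for Itgb1. For siGFP against untreated it was −0.10 to 0.20 for Pecam1, −0.15 to 0.05 for Cd9 and −0.05 to 0.15 for Epcam, and for siLin28a against untreated −0.20 to 0.10 for Itga6 and −0.15 to 0.05 for Cdh1. After a further quantile normalization and cyclic loess, Pecam1 had 0.042 and 0.046 against siGFP, and Itga6 had 0.050 and 0.050 and Cdh1 0.067 and 0.041 against untreated. Cldn7 had 0.0083 after a further quantile normalization. Of the other genes named, those whose difference moved over 1.5 times without 1 array, with no change of sign, include Jam3 (−0.45 to −0.05), Tjp1 (−0.45 to −0.05), F11r (−0.30 to 0.00), Ctnna1 (−0.40 to −0.10), Ptgfrn (−0.40 to −0.10), Esrp2 (−0.35 to −0.15) and Itgb5 (0.10 to 0.30).

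With the replicate block 0 rows passed in each comparison, and the smallest adjusted p of a member by limma was 0.719, 0.759 and 0.507. It changed no call. Deviations of same-numbered arrays correlated at 0.36 (siLin28a, siGFP), 0.15 (siGFP, untreated) and −0.035 (siLin28a, untreated). The siGFP and siLin28a arrays of the same number correlated across rows at r 0.9946 (replicate 1) and 0.9950 (replicate 2). Pairs within a group had at most 0.9941. The labels do not say that the numbers pair arrays, so the main fit holds no pairing, and a shared origin of same-numbered arrays was not tested. The test without a shared prior left out 111 rows with no spread within groups. Each member has 1 row, so averaging rows gives the same member values by construction. The number of arrays and the 0.1 steps limit what could be seen.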
